A study of Mus musculus with 3 samples.

Results

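The cytosines compared here were those listed as 5-methylcytosine (m5C) in the mRNA of both mouse metaphase II (MII) oocytes and 1-cell embryos. Each listed site was identified by its chromosome, position and strand, and sites were matched on these alone. Of the 37675 distinct sites of both lists, 8015 sites in 3804 genes were shared. They made up part of the 20694 sites of MII oocytes and of the 24996 sites of 1-cell embryos, and of the 40298 distinct sites of the whole series. The study followed mRNA m5C across oocyte maturation and fertilization, and the comparison asks how the level and the coverage of the same site, and of the same gene, differed before and after fertilization.

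Both groups were wild-type C57BL/6J mice aged 7 to 8 weeks. The MII oocytes came from females given 10 IU of pregnant mare serum gonadotrophin and later 5 IU of human chorionic gonadotrophin (hCG), and were taken 12 h after hCG. The 1-cell embryos came from females mated with C57BL/6J males and given 5 IU of each hormone, and were taken 24 h after hCG. These are the values of the labels, and the methods of the study give another hCG dose. The zona pellucida was removed in both groups. The design text of the series names about 200 embryos, a number that the methods of the study give for zebrafish and frogs and not for mouse. The number of oocytes or embryos in either library is hence not taken as known. There was 1 library per stage and no replicate, and every test below compares these libraries and not the stages. The oocyte labels hold additional text on the conversion cycles, and library preparation and stage cannot be told apart. The 1-cell embryo list analysed here also differed in coverage and level from the list in the supplement of the study, while the MII oocyte list was the same where both could be compared. No result below was repeated with the list of the supplement, so whether the differences hold there was not tested.

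Methylation of carbon 5 of cytosine in mRNA is laid down mainly by the methyltransferases NSUN2 and NSUN6. NSUN2 methylates cytosines followed by a G-rich stretch (Type I sites), and NSUN6 methylates cytosines in the motif CUCNA, with the methylated C first (Type II sites). The mature oocyte is arrested in the second meiotic metaphase with little or no transcription, and its mRNAs are stored, translated or degraded as meiosis ends and the first cell cycle begins. Transcription of the embryonic genome starts at a low level in the late 1-cell embryo. Bisulfite converts C to U, which is sequenced as T, whereas m5C remains C, so the m5C level of a site is the percent of its reads that were not converted.

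The sites that differed most between the libraries are shown with the 10 bases before and the 15 bases after the methylated C, in the 5′ to 3′ direction of the mRNA and as DNA letters from GRCm38. The capitals mark the methylated C and the 4 bases after it, which separate Type I from Type II. The first 6 are from the 8 largest rises among sites with at least 50 reads in both libraries, all of them Type I, the next 8 are the largest falls, and the last 6 are the Type II sites with the largest rises and falls.
Ints3 (chr3:90391990-90392015, minus strand, 3′ UTR), rise: caccctgcccCAGCCtgagaaaggtc
Ston2 (chr12:91647536-91647561, minus strand, CDS), rise: cgagcattaaCGGGGcggaagtagag
Heatr5b (chr17:78766884-78766909, minus strand, CDS), rise: ttaacaaagaCAGGAtgcacctgatc
Ttc34 (chr4:154865417-154865442, plus strand, CDS), rise: ggacctggacCGGGTgctgcagcacc
Ccni (chr5:93182920-93182945, minus strand, 3′ UTR), rise: gctgactactCGGGGtgagactagaa
Top3a (chr11:60756421-60756446, minus strand, CDS), rise: gctgccttcaCAAGGttccagaccct
Nrg1 (chr8:31968052-31968077, minus strand, CDS), fall: ggttcaagaaCGGGAatgagctgaac
Ccdc186 (chr19:56787602-56787627, minus strand, 3′ UTR), fall: ttcccgagtgCAGGGctgtctgcgtt
Sys1 (chr2:164464644-164464669, plus strand, 3′ UTR), fall: ttgggctgctCAGACctccagatggg
Spint1 (chr2:119237984-119238009, plus strand, CDS), fall: ggccaccttcCTGGGttccccgacgg
Psmb1 (chr17:15476102-15476127, minus strand, CDS), fall: ttcatttctgCAGCCgagagggatgt
Galk2 (chr2:125983163-125983188, plus strand, CDS), fall: agcttattacCAGGGgaacacatccc
Fchsd2 (chr7:101283603-101283628, plus strand, 3′ UTR), fall: gcaccttctgCAGGTcagggaagagc
Paqr4 (chr17:23737945-23737970, minus strand, CDS), fall: gcctgcagacCGTGGcttcgcccagc
Srp68 (chr11:116252730-116252755, minus strand, CDS), Type II rise: ggtgtcaaatCTCCAgtacctgcaca
Wbp1l (chr19:46654186-46654211, plus strand, CDS), Type II rise: agcacaagacCTCCAagtgtcgcaga
Taf1a (chr1:183409636-183409661, plus strand, 3′ UTR), Type II rise: agtcctttgaCTCTAgaggactgatt
Nab2 (chr10:127664289-127664314, minus strand, CDS), Type II rise: gccgcctggaCTCCAaaaggcgggag
Snph (chr2:151594197-151594222, minus strand, CDS), Type II fall: caggggatccCTCCAacacctctgcc
Rapgefl1 (chr11:98851445-98851470, plus strand, 3′ UTR), Type II fall: cctctctgctCTCCAagggaggtctg

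Short G-bearing stretches after the C are present among both the Type I sites that rose and those that fell. The falling site of Nrg1 and the rising site of Ston2 share the letters CGGG, and the falling sites of Ccdc186 and Galk2 share CAGGG. Of the 6 Type II sites shown, 5 carry CTCCA, and that of Taf1a carries CTCTA.

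The shared sites held 3807829 reads in the MII oocyte library and 1190760 reads in the 1-cell embryo library, which is 72.0% and 45.5% of the reads at all listed sites. The median coverage of a shared site was 240 reads (quartiles 126 and 473) in MII oocytes and 66 reads (37 and 131) in 1-cell embryos. Of 10 oocyte markers fixed for the check of the labels, 9 had a listed site in MII oocytes, where Zp2 had none, and all 10 had one in 1-cell embryos. Of 11 cumulus and granulosa cell markers, 2 had a site in MII oocytes, Amh with 96 reads and Cyp19a1 with 49 reads, and none had one in 1-cell embryos. The other cumulus markers of the check, Has2, Ptgs2, Ptx3 and Fshr among them, had no listed site in either library. Of the wider list of 24 cumulus and granulosa cell genes, 1 was listed in 1-cell embryos. The lists hold called m5C sites alone, and the paper reports only low methylation in follicle cells. A marker without a listed site may hence still be present as mRNA, and the check cannot show that such cells were absent.

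The level of most shared sites was higher in 1-cell embryos. The median level was 22.7% in MII oocytes and 39.5% in 1-cell embryos. The median difference at the same site, 1-cell embryo minus MII oocyte, was 12.7 percentage points (95% interval of the median over sites 12.3 to 13.2). Of the 8015 sites, 6713 (83.8%) had a higher level in 1-cell embryos, 1301 a lower level and 1 an equal level. By Fisher's exact test on unconverted and converted reads, two-sided and adjusted over all shared sites at 0.05, 4115 sites were called higher (51.3%) and 196 sites were called lower (2.45%). The reads carry no molecular identifiers, so the intervals and tests cover counting error only. When the reads were divided by 5, as if 5 reads came from 1 molecule, 577 sites were called higher and 5 lower.

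Large differences were nearly all towards higher levels in 1-cell embryos. The embryo level was more than 20 points higher at 2756 sites and more than 20 points lower at 106, and it was more than 50 points higher at 413 sites and more than 50 points lower at 3. Sites at a level of 50% or more numbered 1265 (15.8%) in MII oocytes and 2992 (37.3%) in 1-cell embryos. Sites at 80% or more numbered 271 and 1038. Levels of the same sites were correlated between the libraries (Pearson r = 0.69, Spearman correlation 0.65 over 8015 sites, which share the library, the depth and the calling limits of each list), and the Spearman correlation was 0.78 over the 2707 sites with at least 100 reads in both.

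**Figure D1:**
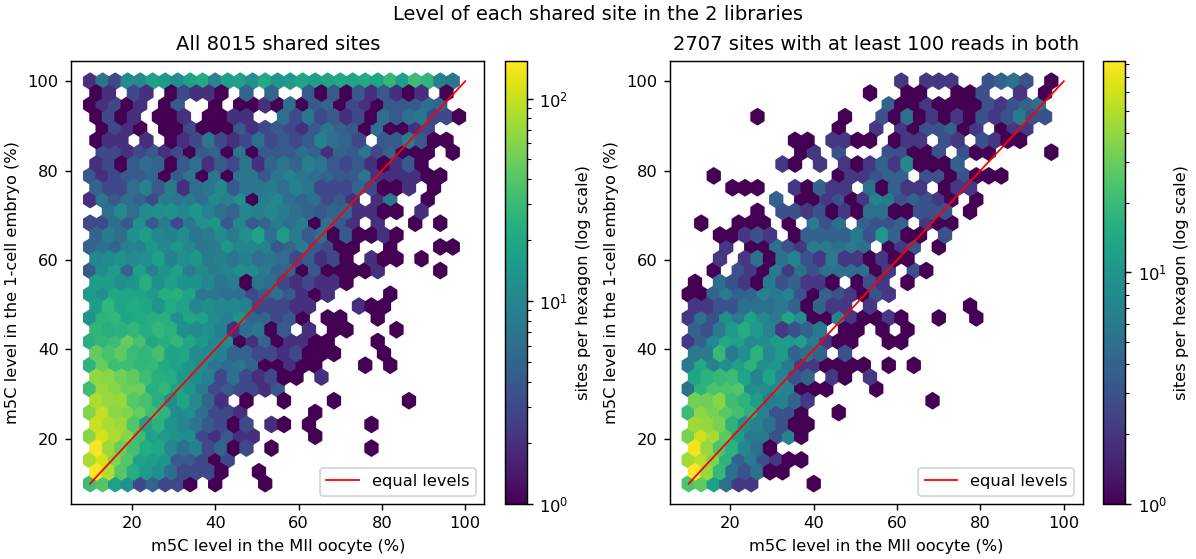
Level of each shared site in MII oocytes (x axis, percent) and in 1-cell embryos (y axis, percent), for all 8015 sites on the left and for the 2707 sites with at least 100 reads in both libraries on the right. The colour gives the number of sites per hexagon on a log scale and the red line marks equal levels. Most sites lie above the line in both panels, and a row of 467 sites lies at 100% in 1-cell embryos on the left.

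A group of 467 sites in 448 genes was unconverted in every read of the 1-cell embryo library, whereas no shared site was at 100% in MII oocytes. The sites between 95% and 100% numbered 93 in 1-cell embryos and 15 in MII oocytes, so the count at exactly 100% stood apart from the neighbouring levels in 1-cell embryos alone. The levels of these 467 sites in MII oocytes ranged from 10.7% to 98.4%, with a median of 61.5%. Their median coverage was 30 reads in 1-cell embryos and 131 reads in MII oocytes, and 19 of them had at least 100 reads in 1-cell embryos. The most deeply read was in the CDS of Thop1, an oligopeptidase, with 325 of 356 reads unconverted in MII oocytes (91.3%) and 226 of 226 in 1-cell embryos. Without these sites the median difference was 11.9 points and 3665 sites were called higher. What set these sites at 100% was not tested.

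The size of the difference changed with coverage, and its direction did not. Where 1-cell embryos had 20 to under 30 reads, the median difference was 25.7 points. It was 16.0 points at 30 to under 50 reads, 12.2 points at 50 to under 100 reads and 9.55 points at 100 to under 200 reads, and it was 6.79 points at 500 or more reads. A listed site had at least 5 unconverted reads in each library, and hence a level of at least 25% at a coverage of 20 reads, so that lightly covered sites of low level were missing. Of the shared sites, 37.0% had under 50 reads in 1-cell embryos and 4.39% in MII oocytes. Among the 338 sites with at least 500 reads in both libraries, 301 (89.1%) had a higher level in 1-cell embryos, 239 were called higher and 13 lower, and the median difference was 6.68 points. Thus 82.1% to 89.1% of sites were higher in 1-cell embryos at every coverage minimum tried (20, 50, 100, 200 and 500 reads in both), while the median difference fell from 12.7 to 6.68 points.

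Sites of every starting level were higher on median in 1-cell embryos. The median difference was 12.0 points for the 3416 sites at 10% to 20% in MII oocytes, 16.5 points for the 594 sites at 40% to 50%, 9.75 points for the 198 sites at 80% to 90% and 3.52 points for the 73 sites above 90%. A site near 10% in MII oocytes could hardly fall and stay listed, and 90.1% of the sites at 10% to 20% were higher. The 1265 sites at 50% or more in MII oocytes had room to fall, and 992 of them (78.4%) were higher in 1-cell embryos, with 635 called higher and 65 called lower. Relative to the part of the mRNA that was unmethylated in MII oocytes, the median gain was 14.0% for sites at 10% to 20%, 30.2% at 40% to 50% and 62.9% at 80% to 90%. For sites above 90% the median embryo level was 100%. These gains and the counts at 50% or more include the sites at 100% in 1-cell embryos, whose median level in MII oocytes was 61.5%. Neither was computed without those sites.

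**Figure D2:**
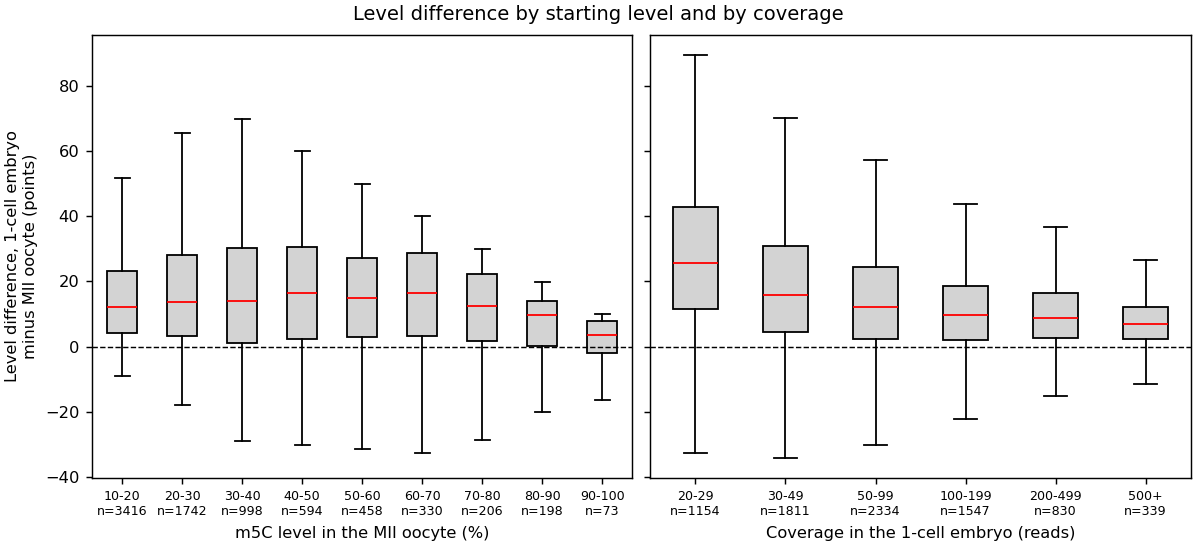
Difference in level, 1-cell embryo minus MII oocyte, in percentage points (y axis), by the level in MII oocytes on the left and by the coverage in 1-cell embryos on the right. Boxes give the quartiles, red lines the median and whiskers reach 1.5 times the interquartile range, with sites beyond them not drawn. The medians lie above 0 in every class and decrease with coverage from 25.7 to 6.79 points.

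The median difference was smaller at Type II than at Type I sites. Classes of sites are described without a test, since sites are not replicates. The intervals in brackets treat sites as independent and are no comparison of classes. As in the study, sites in the motif CUCNA were Type II and all remaining sites Type I, with no G required after the C. Which enzyme methylated a site was not tested. Of the 8011 sites on chromosomes, 7624 were Type I and 387 were Type II. The median level of Type I sites was 22.7% in MII oocytes and 39.8% in 1-cell embryos, a median difference of 12.99 points (12.6 to 13.5), with 52.1% called higher and 2.33% called lower. The median level of Type II sites was 23.8% and 33.3%, a median difference of 7.26 points (5.71 to 9.28), with 36.4% called higher and 4.65% called lower. The median of Type II minus that of Type I sites was -5.73 points, and it lay between -7.10 and -5.28 points under every coverage and level minimum tried and with CUCCA as the only Type II motif. Both classes had like coverage, with medians of 66 and 69 reads in 1-cell embryos. The motif CTCNA, read on the strand of the site in the genome, was present at 4.82% of the shared sites, at 5.16% of the sites listed in MII oocytes alone and at 2.78% of those listed in 1-cell embryos alone.

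The 504 sites with no G in the 4 bases after the C, which include most Type II sites, had a median difference of 8.16 points, against 12.9 to 13.2 points for the sites with 1, 2, 3 or 4 G. Over single bases in these 4 positions it ranged from 9.86 points (C at the second base after the site) to 14.7 points (T there). The median difference was 12.0 points in the 5′ UTR (883 sites), 12.8 points in the CDS (5842 sites) and 13.2 points in the 3′ UTR (1153 sites). The 126 sites in other exons had 9.64 points. The median difference was 12.0 to 14.0 points in the 5 equal parts of the CDS. Sites predicted to be paired and unpaired by folding 50 nt on either side had median differences of 12.96 and 12.48 points. Classes of GC content of the same windows gave 12.1 to 13.1 points, and single chromosomes gave 10.8 to 16.2 points.

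The unconverted background of a gene, recovered from the deposited p-values, moved little. Its median over sites was 0.408% in MII oocytes and 0.475% in 1-cell embryos, and the median difference was 0.0774 points over the 7771 sites with a value in both. With the background removed from each level the median difference was 12.9 points. The highest background of a gene was 3.69% in MII oocytes and 3.29% in 1-cell embryos. The Spearman correlation of the level difference with the difference in background was 0.14, over sites with a value in both. Sites with a binomial p-value under 1e-300 were left out of the recovery, 1378 in MII oocytes and 373 in 1-cell embryos. Beyond removing this background, the part of conversion in the level difference was not tested.

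The largest rises went from a minority of the mRNA methylated to nearly all of it. In the 3′ UTR of Ints3, a subunit of the Integrator complex, the level was 15.3% of 222 reads in MII oocytes (95% Wilson interval 11.2 to 20.6) and 98.1% of 52 reads in 1-cell embryos (89.9 to 99.7). In the CDS of Ston2, an endocytic adaptor, it was 11.9% of 219 reads and 92.5% of 53 reads. In the CDS of Heatr5b it was 20.0% of 60 reads and 96.4% of 56 reads. None of these intervals overlapped. The site of Ttc34 was at 23.1% of 108 reads and 98.1% of 54 reads, and that of Top3a, a DNA topoisomerase, at 20.6% of 281 reads and 91.1% of 56 reads. Sites of Ripor1 (26% of 77 reads in MII oocytes) and of the cyclin gene Ccni (26% of 219 reads) were at 100% of 50 reads in 1-cell embryos, the group described above. In the CDS of Zswim8, a ubiquitin ligase component that takes part in microRNA turnover, a site was at 16.5% of 260 reads and 89.0% of 73 reads. The adjusted p of these 8 sites by Fisher's exact test lay between 5.97e-29 and 5.81e-17.

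The largest falls were smaller and involved fewer sites. The level in the CDS of Nrg1, a ligand of ErbB receptors, was 77.0% of 135 reads in MII oocytes (69.3 to 83.3) and 19.4% of 67 reads in 1-cell embryos (11.7 to 30.4). In the 3′ UTR of Ccdc186 it was 77.6% of 85 reads and 24.1% of 58 reads, and in the 3′ UTR of Sys1, a Golgi membrane protein, 82.7% of 272 reads and 36.1% of 83 reads. These were again differences well beyond the counting intervals of both libraries. The site of Spint1, a protease inhibitor, was at 68.7% of 252 reads and 28.3% of 120 reads, and that of the proteasome subunit Psmb1 at 51.8% of 711 reads and 12.0% of 50 reads. Galk2 was at 50.6% of 87 reads and 10.8% of 83 reads, and Paqr4 at 79.8% of 104 reads and 48.1% of 106 reads. That of Fchsd2, an adaptor of membrane and actin, was close to fully methylated in MII oocytes, at 96.0% of 724 reads, and at 63.2% of 57 reads in 1-cell embryos. With the reads divided by 5, those of Ccdc186, Psmb1, Galk2 and Paqr4 no longer passed the test.

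Single Type II sites moved in both directions. The largest rises were in Srp68, a protein of the signal recognition particle, from 34.9% of 235 reads to 88.5% of 61 reads, and in Wbp1l, from 11.4% of 422 reads to 64.9% of 77 reads. Taf1a, a subunit of the RNA polymerase I factor SL1, went from 14.7% of 707 reads to 67.7% of 62 reads. Nab2, a corepressor of EGR transcription factors, went from 45.8% of 295 reads to 98.6% of 71 reads. The largest falls were in Snph, which anchors mitochondria in axons, from 39.6% of 197 reads to 13.3% of 75 reads, and in Rapgefl1, from 37.2% of 231 reads to 14.3% of 56 reads. Neither of these falls passed the test with the reads divided by 5.

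**Figure D3:**
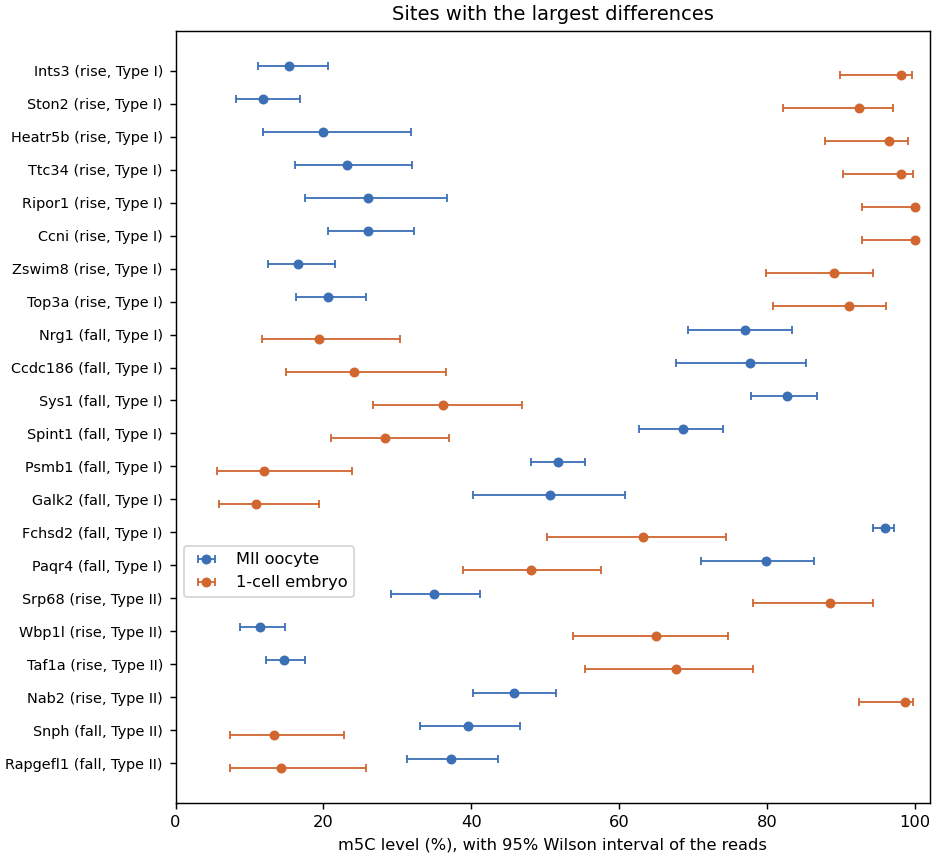
Level (x axis, percent) in MII oocytes and in 1-cell embryos at the 22 sites with the largest rises and falls, with 95% Wilson intervals that cover counting error only. The intervals of the libraries do not overlap at any of these sites, which were chosen for the size of their difference.

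At the 6 most deeply read sites, taking at most 1 site per gene, the libraries were close to each other. The most deeply read site lay in the CDS of Zbed3, a maternal-effect gene of the subcortical maternal complex, with 19.0% of 74120 reads in MII oocytes and 20.7% of 26806 reads in 1-cell embryos. In Uchl1, a ubiquitin hydrolase that is abundant in oocytes, the level was 14.9% of 11470 reads and 21.3% of 2451 reads. In Ooep, another member of the subcortical maternal complex, it was 16.1% of 8354 reads and 15.9% of 4013 reads, which did not differ by Fisher's exact test (adjusted p = 0.878, difference within both counting intervals). The transcripts C86187, Gm47287 and Gm47305 were at 13.3%, 14.7% and 15.1% in MII oocytes and at 14.9%, 17.8% and 14.0% in 1-cell embryos. Of these 6 sites, 4 were called higher, that of Gm47305 was called lower, and none of the differences exceeded that of Uchl1.

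Genes were compared by combining their sites in an exact stratified test, which does not mix levels of different sites. Of the 1886 genes with at least 2 shared sites, 1466 were called higher in 1-cell embryos (77.7%) and 21 were called lower (1.11%). The median common odds ratio was 2.01 (quartiles 1.5 and 2.92), the odds being those of an unconverted against a converted read. Reads that span several sites of a gene were counted at each, so these p-values are too small. With the reads divided by 5, 648 genes were called higher and 1 lower.

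The sites of a gene did not all move together. Of the 1026 genes with at least 3 shared sites, 490 (47.8%) were higher at every site and 3 were higher at none. Of the 319 genes with at least 5 sites, 108 were higher at every site, and 10 had a median difference below 0. Among all shared sites 83.8% were higher, and counting error can set the sign of a small difference. These counts are hence not read as a trait of genes. In 113 genes at least 1 site was called higher and at least 1 other called lower. Differences between genes made up 8.29% of the variance of the level difference over the 6097 sites of genes with several sites, with a standard deviation (SD) of 17.0 points within a gene and of 5.10 points between genes. At 100 or more reads in both libraries the share between genes was 7.66%. The log2 ratio of coverage, measured at the same sites, behaved otherwise, with 53.7% of its variance between genes and 65.0% at 100 or more reads.

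Among genes with at least 5 shared sites, the median difference was highest in Add1, Arfgef2, Huwe1, Zswim8, Cntnap1, Rcor1, Bcr and Ssrp1, at 33.7, 33.0, 31.8, 31.2, 31.1, 30.9, 30.6 and 30.5 points. Exon numbers below are those of the GENCODE transcript that holds the site, and distances are along the genome. Huwe1, a HECT ubiquitin ligase on the X chromosome, was called higher at all 5 sites. Its levels in MII oocytes were 13.6%, 12.2%, 15.4%, 10.2% and 29.6% from the 5′ end, and those in 1-cell embryos 45.5%, 81.0%, 41.3%, 33.3% and 69.6%. Its coverage was 21 to 46 reads per site in 1-cell embryos, so single levels are loosely held. Arfgef2, a guanine nucleotide exchange factor of ARF proteins, was higher at all 6 sites and was called at 5, the lowest difference being 16.0 points and the highest 58.8 points. The site with the highest difference was at 100% of 50 reads in 1-cell embryos, the group described above. Add1, which caps actin in the membrane skeleton, had 4 sites called higher, while its last site in the 3′ UTR was at 21.9% and 19.0%.

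Even in these genes neighbouring sites could differ. In Ssrp1, a subunit of the histone chaperone FACT, 2 sites 48 nt apart in exon 16 were at 35.3% and 14.0% in MII oocytes and at 72.0% and 18.4% in 1-cell embryos, and the first alone was called. In Rcor1, a corepressor scaffold, 2 sites 54 nt apart in exon 1 were at 12.6% and 19.2% in MII oocytes and at 39.5% and 17.2% in 1-cell embryos. Cntnap1, an axonal contactin partner, had 4 sites called higher, while those of exons 5 and 20 were at 12.8% and 23.5% in MII oocytes and at 17.6% and 17.2% in 1-cell embryos. Bcr had 2 sites in exon 1 at 27.4% and 12.3% in MII oocytes and at 22.9% and 10.3% in 1-cell embryos, and its 3 downstream sites rose by 30.6 to 62.4 points.

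The 6 genes with the lowest medians were Entpd6, Jup, Insm1, Camsap1, Zfp664 and Fam131a, at -11.9, -7.61, -4.52, -2.92, -1.79 and -1.77 points. Of these, Entpd6, a nucleoside diphosphatase, was called lower as a gene (odds ratio 0.64, 95% interval 0.497 to 0.820). In its exon 5, 2 sites 36 nt apart crossed over. The first was at 10.4% of 415 reads in MII oocytes and 29.8% of 131 reads in 1-cell embryos, and the second at 39.5% of 395 reads and 10.4% of 154 reads, and both were called. Insm1, a zinc finger factor of neuroendocrine cells, had 9 sites in a single exon, of which 2 were called higher and 2 lower. Camsap1, a microtubule minus-end protein, had 1 site called higher and 2 lower, and Zfp664 had 2 higher and 1 lower. Jup, which encodes plakoglobin, was lower at 5 of 6 sites, none of them called, and its other site was called higher. Fam131a had a median below 0 but was called higher as a gene, with 2 of 7 sites called higher.

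**Figure D4:**
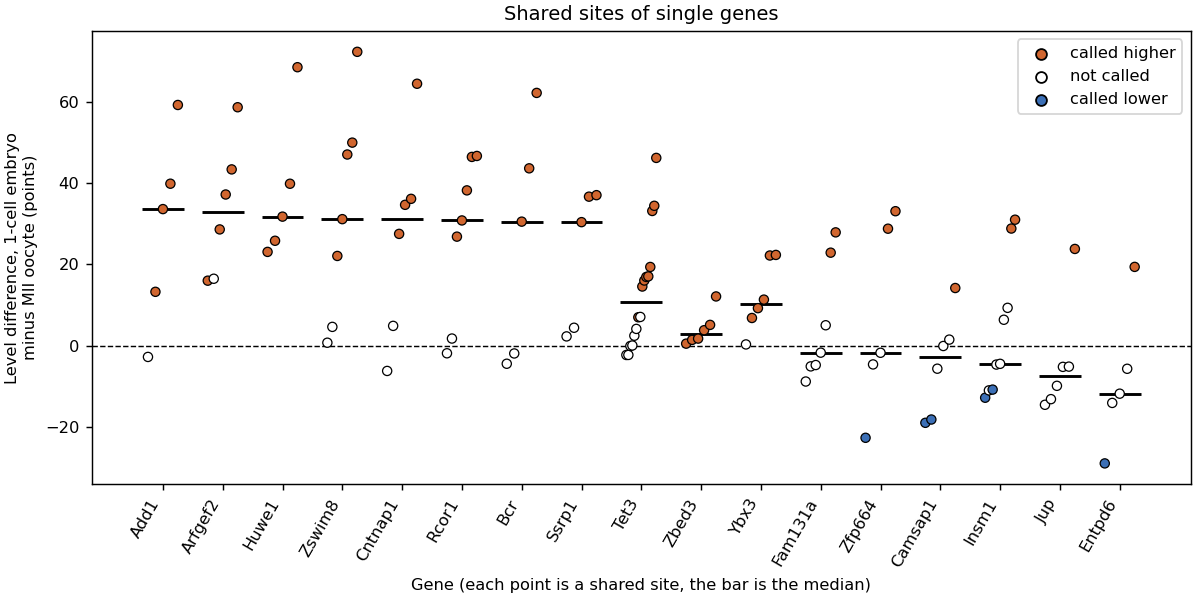
Difference in level of single shared sites, 1-cell embryo minus MII oocyte, in percentage points (y axis), in the 8 genes with the highest and the 6 with the lowest median among genes with at least 5 sites, and in Tet3, Zbed3 and Ybx3 between them. Points are sites, filled where called, and bars are medians. Sites of 1 gene spread widely, and Entpd6, Insm1, Camsap1 and Zfp664 hold calls in both directions.

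Gene lists are described by their shared sites. Every list with shared sites had a higher median coverage in 1-cell embryos than the 66 reads over all shared sites. The share of sites called and the size of the difference both changed with coverage. The part of coverage in the values of a list was not tested. Of the 8048 genes with a site in at least 1 of the libraries, 3804 had a shared site. The share among all covered genes was not counted, so the number of listed genes with a shared site is not read as a trait of a list. Of 17 genes listed as writers, readers or erasers, 3 had one, Tet3, Ybx3 and Ybx2, with 25 sites, of which 16 were called higher (64.0%, against 51.3% of all shared sites) and none lower (against 2.45%), and the median difference was 9.22 points against 12.7 points over all shared sites. Tet3 encodes the dioxygenase that oxidises 5-methylcytosine of DNA in the zygote, and with 16 shared sites its mRNA held the most of any gene. All 3 genes were called higher, as were 77.7% of all genes tested. The median coverage of their 25 sites was 240 reads in 1-cell embryos. Among all shared sites with 200 to under 500 reads there, 59.4% were called higher and 1.57% lower. The median difference of those sites was 8.87 points.

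In Tet3, 13 of 16 sites were higher in 1-cell embryos, 9 were called higher and none lower. The differences ranged from -2.34 to 46.3 points. In its 5′ UTR, 3 sites within 197 nt took different courses, at 58.8%, 10.4% and 11.3% from the 5′ end in MII oocytes and at 93.3%, 43.6% and 11.3% in 1-cell embryos. A pair of adjacent cytosines in the CDS was at 91.9% of 1705 reads and 61.5% of 1689 reads in MII oocytes and at 94.3% of 563 reads and 77.5% of 560 reads in 1-cell embryos, and the second alone was called. A pair of sites 5 nt apart in the 3′ UTR belonged to different classes. The Type I site was at 50.6% of 737 reads and 70.0% of 80 reads and was called higher, whereas the Type II site beside it was at 61.8% of 844 reads and 61.7% of 81 reads.

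Ybx2 (MSY2) and Ybx3 are Y-box proteins that bind and store mRNA. In Ybx3, all 6 sites were higher and 5 were called, and these 5 lay within 383 nt of exon 1. The level of 1 of them was 29.2% of 1636 reads in MII oocytes and 51.6% of 917 reads in 1-cell embryos, and that of another 84.6% of 2804 reads and 91.4% of 1196 reads. In Ybx2 the site at 11.3% of 1084 reads was at 11.3% of 230 reads in 1-cell embryos, while that 16 nt further, at 12.8% of 1409 reads, was at 21.3% of 263 reads and was called.

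Of 20 genes of oocyte-secreted, zona and fusion proteins, 10 had a shared site, with 21 sites, 13 called higher (61.9%, against 51.3% of all shared sites), 1 called lower (4.76%, against 2.45%) and a median difference of 13.8 points. In Gdf9, a growth factor of the oocyte, the sites were at 11.6% of 5382 reads and 50.1% of 6767 reads in MII oocytes and at 26% of 605 reads and 58.3% of 648 reads in 1-cell embryos, both called higher. The site in the 5′ UTR of Bmp15, its paralogue, was at 14.1% of 4264 reads and 13.1% of 2366 reads and did not pass the test. In Bmp6 one CDS site went from 30.7% of 681 reads to 85.1% of 47 reads, and in Astl, the protease that cleaves ZP2 after fertilization, one went from 12.8% of 1416 reads to 29.4% of 170 reads. The site called lower was in Tgfb2, where the level fell by 5.78 points.

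The maternal-effect genes had smaller differences than the median site. Of 51 genes listed, 31 had a shared site, with 74 sites, 40 called higher (54.1%, near the 51.3% of all shared sites), 5 called lower (6.76%, against 2.45%) and a median difference of 6.44 points. Their coverage was also higher, with a median of 166 reads in 1-cell embryos against 66 reads over all shared sites, and the part of coverage in the smaller difference was not tested. Zbed3 was called higher at all 6 sites with differences of 0.459 to 12.1 points, and its most methylated site was at 95.5% of 55823 reads and 96.0% of 23303 reads. Tle6, also of the subcortical maternal complex, rose at each of its 3 CDS sites, from 11.6%, 15.5% and 66.5% to 24.6%, 37.7% and 88.9%, with at least 1113 reads at each in 1-cell embryos. Zfp57, which keeps imprints methylated, was at 17.2%, 24.4% and 47.2% and then at 21.7%, 28.2% and 46.5%. Kmt2d, a histone methyltransferase, rose by 22.7 to 32.0 points at 3 sites, and in Eed, of Polycomb complex PRC2, one of 2 sites was called lower, where the level fell by 26.9 points.

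Of 58 genes of mRNA decay and translational control, 29 had a shared site, with 74 sites, 37 called higher (50%, near the 51.3% of all shared sites), 4 called lower (5.41%, against 2.45%) and a median difference of 8.18 points. Btg4, the adaptor that brings the CCR4-NOT deadenylase to maternal mRNAs, was at 12.0%, 87.0% and 12.1% in MII oocytes and at 17.6%, 91.7% and 20.4% in 1-cell embryos, each site with at least 2565 reads in 1-cell embryos and each called higher. Upf1, the helicase of nonsense-mediated decay, had 4 sites, all higher and 2 called. Edc4, a scaffold of decapping, had 9 sites, of which 6 were higher and 4 were called. Lsm14b, which binds stored mRNAs, had 5 sites, of which 1 was called higher and 1 lower. The decapping factor Dcp1a had 3 sites in its 3′ UTR at 53.8%, 10% and 25% in MII oocytes and at 98.7%, 51.9% and 73.2%, over 150, 54 and 41 reads, in 1-cell embryos (odds ratio 13.2, 8.91 to 20.1). Ythdf3, a reader of N6-methyladenosine, had 2 of 4 sites called lower and 1 called higher, and was not called as a gene, and both sites of the deadenylase Cnot6l differed by -3.32 and -3.53 points without a call.

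Of 76 genes of meiosis and the cell cycle, 42 had a shared site, with 89 sites, 49 called higher (55.1%, near the 51.3% of all shared sites), none called lower by Fisher's exact test (against 2.45%) and a median difference of 12.0 points. Ccnb1, cyclin B1, was at 12.4% of 4190 reads and 20.6% of 3172 reads, the best covered site of the list in 1-cell embryos. Map2k1, a kinase of the MOS and MAPK pathway that holds the metaphase arrest, was called higher at all 4 sites, by 4.88 to 23.5 points. Mcm5, of the replicative helicase, was at 67.5% and 93.8% at its most methylated site and was called higher at 4 of 5 sites. In Aurkc, a meiotic kinase, the site at 55.1% of 1550 reads was at 69.1% of 457 reads. Espl1, the separase that opens cohesin at anaphase, was higher at all 6 sites and was called at 5, with a median difference of 22.0 points.

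Of 38 early zygotic transcripts, 5 had a shared site, Eif1ax, Hspa8, Sp110, Chaf1a and Hspa1b, with 11 sites, 6 called higher (54.5%, near the 51.3% of all shared sites), 1 called lower (9.09%, against 2.45%) and a median difference of 7.17 points. Eif1ax, a translation initiation factor, was at 20.7% and 16.4% in MII oocytes and at 22.4% and 11.1% in 1-cell embryos, the second called lower. The chaperone gene Hspa8 was at 14.7% of 3299 reads and 28.8% of 560 reads. Both are also present as maternal mRNA, as their reads in MII oocytes show. In Sp110, 2 of 3 sites were called higher, and in Chaf1a, a subunit of chromatin assembly factor 1, 2 of 4. None of the 24 cumulus and granulosa cell genes had a shared site, with 2 listed in MII oocytes and 1 in 1-cell embryos.

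Coverage of the shared sites was compared per gene, as a log2 ratio of 1-cell embryo to MII oocyte relative to the median gene, whose ratio was 0.335. It tracks the amount of a transcript only where sites are listed in both libraries, and less RNA per cell and fewer cells in a pool cannot be told apart. Only 159 sites (1.98%) had more reads in 1-cell embryos. Relative coverage was within 2-fold for most genes, with quartiles of -0.55 and 0.53 on the log2 scale. It was more than 4-fold lower in 1-cell embryos for 87 genes (2.29%) and more than 4-fold higher for 26 genes (0.683%), with no test since there was 1 library per stage. A 4-fold lower gene needed about 239 reads per site in MII oocytes to keep 20 in 1-cell embryos, and 1723 genes had them, of which 87 (5.05%) were lower. Of these 1723 genes, 1 was more than 4-fold higher, so the other higher genes were thinly covered in MII oocytes, with a median of 30 reads per gene over all 26.

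Among genes with at least 3 shared sites, relative coverage was lowest in Cebpb, Eef2k, Pcnt, Ddx46, Depdc7, Lamb1, Ibtk and Dcp1a. Cebpb, a bZIP transcription factor, had 757, 832 and 852 reads at its sites in MII oocytes and 27, 35 and 30 in 1-cell embryos, a relative log2 ratio of -3.15. Eef2k, the kinase of elongation factor 2, had a log2 ratio of -2.92, and Pcnt, the pericentrin of microtubule organizing centres, of -2.90. Lamb1, a laminin chain, had 18339 reads at 7 sites in MII oocytes and 1077 in 1-cell embryos, a log2 ratio of -2.51 with an SD of 0.18 between its sites. Ddx46, a splicing helicase, and Dcp1a were at -2.63 and -2.30. Levels in these genes differed widely, with median differences of 47.5 points in Ddx46 and 44.8 points in Dcp1a, of 22.4 points in Eef2k and of 3.98 points in Ibtk. The median embryo level of Ddx46 was 100% at a median of 24 reads, so its value rests on the group of sites at 100% described above.

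Relative coverage was highest in Cited2, Stxbp5, Pmm1, Kat5, Specc1l, Hspa12a, Washc2 and Rras2. Cited2, a transcriptional coregulator, had 218, 52 and 142 reads at its sites in MII oocytes and 546, 196 and 361 in 1-cell embryos, a relative log2 ratio of 3.00. It was the 1 gene of this group past 4-fold. Its levels were 22.9%, 26.9% and 11.3% in MII oocytes and 35.2%, 31.1% and 10.8% in 1-cell embryos, and the first alone was called. Kat5, the acetyltransferase TIP60, had a log2 ratio of 1.64 and was called higher at all 3 sites, of which 2 adjacent cytosines went from 35.1% and 24.4% to 79.7% and 77.2%. Stxbp5, with a log2 ratio of 1.82, had no site called in either direction.

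Among the listed genes, relative coverage was on median -0.54 (log2) for Tet3, Ybx2 and Ybx3, the only listed writers, readers or erasers compared. It was -0.99 for the oocyte-secreted, zona and fusion genes, -0.08 for the maternal-effect genes and 0.16 for decay and translational control. For meiosis and the cell cycle it was -0.16, and for the early zygotic transcripts -0.12. Past 4-fold lower were Zp3 of the zona pellucida (1858 and 149 reads), the maternal-effect genes Cdh1 (964 and 24 reads) and Khdc3 (4695 and 328 reads), Dcp1a, and Bub1b of the spindle checkpoint (2329 and 183 reads). None of the listed genes was past 4-fold higher. Of the 2 oocyte growth factors, Gdf9 had a log2 ratio of -1.70 and Bmp15 of 0.73.

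Coverage and level moved with little relation to each other. The Spearman correlation of the level difference with the log2 ratio of coverage was -0.07 over 8015 sites and -0.02 at 50 or more reads in both, where the points share the libraries and the coverage that also bounds the level. Sites in the 87 genes past 4-fold lower had a median difference of 15.5 points (10.9 to 18.7), those in the 26 genes past 4-fold higher of 14.9 points (8.90 to 30.4), and those in the other genes of 12.7 points (12.3 to 13.1). Genes with 1 shared site had a median difference of 15.8 points and a median coverage of 48 reads in 1-cell embryos, and sites in genes with 5 or more had 10.8 points and 83 reads.

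**Figure D5:**
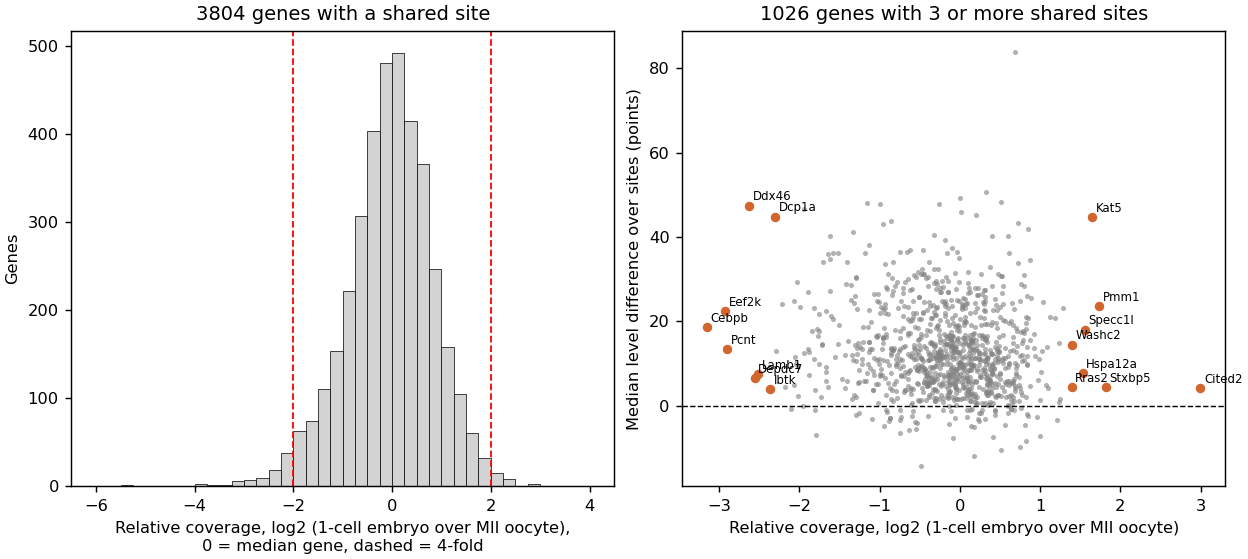
Relative coverage of genes in 1-cell embryos over MII oocytes (x axes, log2, with 0 at the median gene), as a histogram of all 3804 genes on the left with dashed lines at 4-fold, and against the median level difference in percentage points on the right for the 1026 genes with at least 3 shared sites. The named genes are the 8 lowest and the 8 highest in relative coverage. Their level differences spread from 3.98 to 47.5 points, the highest being that of Ddx46, whose median embryo level was 100%.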

How the data were processed

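Sites were read from the lists of 1 MII oocyte and 1 1-cell embryo library; the GV oocyte list was used only to count distinct sites. Per the labels and the methods of the study, bisulfite-converted RNA was sequenced and aligned to GRCm38 (mm10), and the submitters' processing notes name cutadapt 1.13, Trimmomatic 0.36, HISAT2 2.10 and Bowtie2 2.2.9. The labels name polyadenylated RNA, the methods RNA depleted of ribosomal RNA. The authors deposited the coverage as a count of reads, the m5C level as a fraction of unconverted reads, given here in percent, and a binomial p-value against the conversion rate of the gene. The lists hold called sites alone, with at least 20 reads, a level of 10% and 5 unconverted reads, so a site missing from a list may be unmethylated, below the limits or not covered. Coverage was not normalized, and depth per site sets the precision.

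Unconverted reads were level times coverage. Regions and exons came from GENCODE M21 by Ensembl identifier (3803 of 3804 genes) and bases from the RefSeq copy of GRCm38, where all 8011 sites on chromosomes were C on the given strand. Another 4 sites lay on scaffolds, and 11 sites lay in no exon of their gene. RNAfold of ViennaRNA 2.7.2 folded 7905 windows at 37 °C. Fisher's exact test per site (scipy 1.17.1) and the exact stratified test per gene (R 4.3.3) were two-sided, with Benjamini-Hochberg adjustment and calls under 0.05. Both were also run on simulated binomial counts at the real coverages. The simulation left out the limits of the lists and reads copied from 1 molecule, so it does not cover their effect on the calls. Intervals of medians are order-statistic intervals over sites, which treat sites as independent. Python 3.11.15, pandas 2.3.3 and numpy 2.4.6 were used.

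The members and gene lists were chosen with earlier results of these data known. Named were, by rule, the 8 largest rises and 8 largest falls among called sites of at least 50 reads in both libraries, with 4 and 2 for Type II, the 6 sites with most reads at 1 per gene, the 8 highest and 6 lowest medians among genes of 5 or more sites, the 8 lowest and 8 highest relative coverages among genes of 3 or more, and up to 4 genes of each list with the most reads. Listed genes beyond these were named after their values were seen, as was Thop1. Alternatives were minimums of coverage, level and sites, reads divided by 5, equal depth, 1 site per gene, spacing, background, pooling and other scalings.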

Additional observations from a re-analysis of the deposited data

How the results depend on the processing

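The median difference stayed above 0 under every alternative run for it, and none of the 22 sites with the largest rises and falls, the only single sites rerun, changed direction. Most of the alternatives that moved a count enter fewer sites, genes or reads. Sites called higher numbered 4115, and 2636 with at least 50 reads in both libraries, 1531 with at least 100, 2307 with a level of at least 20% in both, 2018 with 1 site per gene and 577 with the reads divided by 5. Sites called lower numbered 196, and 84 with at least 100 reads, 96 with a level of at least 20%, 96 with 1 site per gene, 5 with the reads divided by 5 and 113 with the deeper library scaled to the shallower. The median difference was 12.7 points, and 10.0 with at least 50 reads, 8.87 with at least 100, 14.98 with a level of at least 20%, 15.8 as a mean and 11.9 without sites at 100% in the 1-cell embryo, an alternative chosen after seeing the data. Genes called higher numbered 1466, and 940 with at least 50 reads, 726 with a level of at least 20%, 648 with the reads divided by 5 and 869 with at least 3 sites. Genes called lower numbered 21, and 12 with a level of at least 20%, 1 with the reads divided by 5, 7 with at least 3 sites and 36 with the reads of a gene pooled. Genes higher at every site made up 47.8%, and 56.1% with a level of at least 20% and 33.9% with at least 5 sites. Genes of relative coverage past the limit numbered 87 lower and 26 higher, and 489 and 382 with a 2-fold limit, 11 and 1 with at least 3 sites. Among genes whose MII oocyte coverage allowed a 4-fold fall, also chosen after seeing the data, 1 was higher. Of these 22 sites, 6 no longer passed the test with the reads divided by 5.

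No paired analysis was possible because there was 1 library per stage. With no replicate, differences between stages, animals and library preparations cannot be told apart. Shared sites passed the limits in both lists, so sites that left or entered a list are not described here, and levels at low coverage are bounded from below. The coverage of 66 reads at the median site of the 1-cell embryo limits single levels there. The share of reads that are copies of 1 molecule is unknown.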
